A study of Arabidopsis thaliana with 39 samples.

Results

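The genes described here are 56 *Arabidopsis thaliana* TIR-type NLR immune receptor genes that lie outside the *RPP4*/*RPP5*/*SNC1* cluster, among 37184 genes in the count files and 27444 protein-coding genes. They were set as a list of gene identifiers, chosen with earlier results of these data known, and all 56 were found. The annotation describes 53 of them as TIR-NBS-LRR class proteins. Of the other 3, *AT5G38350* is annotated as an NBS-LRR protein without mention of a TIR domain, *DAR4* (*AT5G17890*) as a DA1-related protein, and *TAO1* (*AT5G44510*) by its own name.

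Small RNA-seq libraries of total plants were made for 13 genotype and growth groups with 3 libraries each, which the study describes as biological triplicates. All plants had the Col-0 background and grew in long days. The first set, 14 day-old seedlings on MS medium, held the mutants *upf1-5*, *upf3-1*, *lsm1a lsm1b* and *ncb-4* beside a wild type called Col-0 (1). The second set, also 14 day-old seedlings on MS medium, held *fy-2*, *rsr1-2*, *ahg2-1*, *ccr4a* and *pab2 pab4* beside Col-0 (2). The third set comprised 21 day-old plants on soil of Col-0 (3) and *cstf64-2*. The study states that these plants grew together, and that the sequencing results of this wild type belong to an earlier submission. The double mutant *lsm1a lsm1b* lacks LSM1 of cytoplasmic 5′–3′ decay, *upf1-5* and *upf3-1* affect nonsense-mediated decay (NMD), and *ncb-4* affects a factor linked to splicing. In the second set, *ahg2-1* and *ccr4a* affect putative deadenylases and *pab2 pab4* lacks a pair of poly(A) binding proteins. The mutants *fy-2* and *rsr1-2* affect mRNA 3′ end formation. CSTF64, affected in *cstf64-2*, recognises GU-rich elements in pre-mRNA 3′ end processing. Related genes remain in several lines, including *PAB8* in *pab2 pab4* and *CSTF64* in *rsr1-2*. The *fy-2* and *upf1-5* alleles are hypomorphic, and the study used them for want of viable knockouts. Sterile *cstf64-2* homozygotes were picked by their appearance from a segregating population on soil.

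TIR-type NLRs are intracellular receptors with an N-terminal TIR domain, a nucleotide-binding domain and leucine-rich repeats. They detect pathogen effectors or their action on host proteins. Active TIR domains make nucleotide signals that are read by EDS1, a lipase-like protein, together with PAD4 or SAG101, which then engage the helper NLRs of the ADR1 and NRG1 families. NLR transcripts are also a known source of secondary, phased siRNAs in many plants: a miRNA of 22 bases cuts or marks the transcript and RDR6 copies it. In Arabidopsis, miR472 acts in this way on coiled-coil type NLR genes, and a product of the *MIR825* hairpin has been described for TIR-type genes.

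Each library of the first set held 6437260 to 7968503 reads on genes, each of the second 7767365 to 9151932, and each of the soil-grown set 2015212 to 2323991. The 56 genes together received 876 to 3749 reads per library, so most values below rest on few reads. Counts per gene were scaled by TMM within each set and are given per 1000000 reads on genes (RPM). The soil-grown set differs from the others in age, growth and depth, and counter lines that name no gene took 76.2% to 79.7% of its totals against 59.5% to 64.1%, a difference whose cause was not tested. Levels are therefore not compared between it and the others. Reads on *RBCS1A*, *LHCB1.3* and *rbcL*, checked as genes of green tissue, were present in every library. As whole plants were used, fewer cells of a type and less RNA per cell cannot be told apart. Reads on 10 mutated genes were lower in all mutant libraries than in all wild-type libraries for 3 genes, including *PAB2* with 4, 9 and 5 counts against 86, 87 and 96. They were higher for *FY* and *CSTF64* and overlapped for 5 genes. Small RNA reads are no measure of the loss of an mRNA or protein.

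The sequences that follow show the place where many of these genes resemble one another and one small RNA. The arm of the *MIR825* hairpin opposite the annotated miR825 lies at TAIR10.1 chr2:11159713-11159734 on the + strand. Its ends were predicted from the RNAfold duplex with 2-base 3′ overhangs and are not an annotated mature miRNA. It is printed with bases 2 to 8 in capitals, the position of a seed if the predicted 5′ end holds, and is followed by the best-matching sites of 7 TIR-type genes. In each site, 5′ to 3′, capitals mark bases that do not form a Watson–Crick pair with the arm.
MIR825 arm: uCAAGCACcagcucgaagaagc
AT5G38850: gcttcttcgagTtggtgcttga
AT1G63750: gcttcttcAagctggtgTttgG
AT5G51630: gcttcttcCaCctggtgcttga
WRR4: gcttcttcCagTtggtgTttgG
AT5G46520: gcttcGtcgagctggtgTCtTa
AT5G46510: gcCtcttcAagctggtgcCtTa
RPS6: gcCtcttcAagctggtgcCtTa
The sites lie at chr5:15555406-15555427 (*AT5G38850*), chr1:23651186-23651207 (*AT1G63750*), chr5:20970294-20970315 (*AT5G51630*), chr1:21167935-21167956 (*WRR4*), chr5:18868068-18868089 (*AT5G46520*), chr5:18860667-18860688 (*AT5G46510*) and chr5:18842935-18842956 (*RPS6*), all on the + strand of TAIR10.1. The last pair of sites is identical in sequence.

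A match was scored without gaps, with a penalty of 1 per mismatch and 0.5 per G:U pair, and counted at a penalty of 4 or less. By this score 30 of the 56 genes (53.6%) held a match to the arm, against 63 of 27444 protein-coding genes (0.2296%). Among all protein-coding genes *AT5G38850* had the lowest penalty, 0.5, from a single G:U pair. *AT1G63750* and *AT5G51630* stood at 2.0, *WRR4* at 2.5, *AT5G46520* at 3.5, and *AT5G46510* and *RPS6* at 4.0. At a penalty of 3 or less, 16 of 27 matched genes were among the 56. All 30 sites lay in coding sequence and 28 in the first exon. They comprised 21 distinct sequences, and 10 of the 22 positions formed a Watson–Crick pair in every site. Of the 33 matched genes outside the list, 17 were annotated as TIR-NBS proteins. These genes descend from one family and share sequence, so their matches are not independent. The mature miR472-3p, searched in the same way, matched none of the 56, with a lowest penalty of 4.5, and 38 protein-coding genes (0.1385%). A match is a resemblance and does not show that a site is cut. Reads on miRNA genes were not analysed here.

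**Figure D1:**
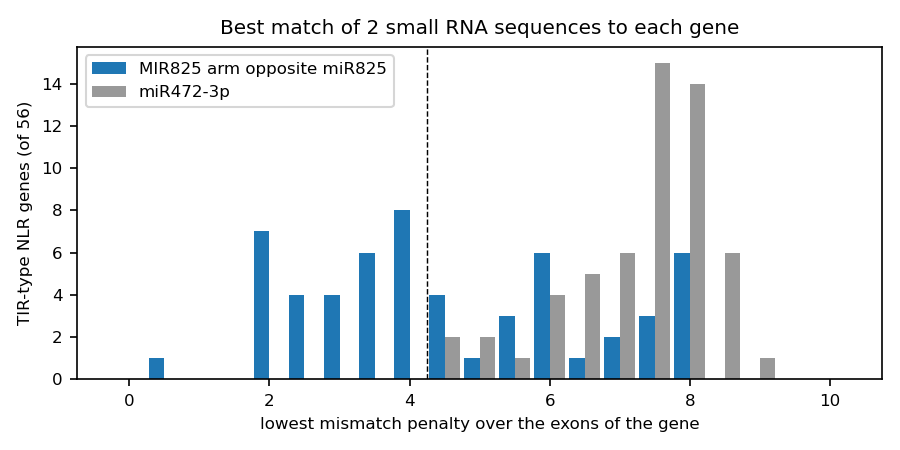
Lowest mismatch penalty over the exons of each of the 56 genes (x axis) and the number of genes at that penalty (y axis), for the *MIR825* arm opposite miR825 and for miR472-3p. The dashed line separates the penalties counted as a match: 30 genes lie to its left for the arm, *AT5G38850* alone at 0.5, and none for miR472-3p.

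In wild-type seedlings the reads were concentrated on 3 genes. *AT5G38850* (chromosome 5, 15555156–15558882, + strand), which has no annotated name, stood at 20.4 ± 1.63 RPM per kb of exon in Col-0 (1) and 27.2 ± 2.45 in Col-0 (2) (SD, n = 3). It held 41.1% and 55.9% of all reads on the 56 genes. *LAZ5*, a receptor whose loss suppresses the cell death of an *acd11* mutant, followed at 7.45 ± 1.78 and 5.02 ± 0.681 RPM per kb. *AT1G63750*, also without an annotated name, came after it at 5.24 ± 1.40 and 3.09 ± 0.394 RPM per kb. *LAZ5* and *AT1G63750* were within their combined spread in Col-0 (1) and apart in Col-0 (2).

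All other genes were below 1 RPM per kb of exon. *AT2G14080* stood at 0.777 ± 0.0907 and 0.789 ± 0.104 RPM per kb in Col-0 (1) and Col-0 (2), and *AT4G19530* at 0.544 ± 0.0671 and 0.961 ± 0.292. *AT1G63880*, *AT5G46450*, *AT3G44670*, *RPP1* and *RPS4* came next by their mean over both wild types, between 0.318 and 0.689 RPM per kb, and neighbours in this order overlapped in their spread. The median gene had 0.159 RPM per kb in Col-0 (1) and 0.136 in Col-0 (2). The 5 genes with most reads held 75.9% and 80.6% of the reads, and 19 genes in each wild type had at most 3 counts in every library, the floor used here.

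In the seedling wild types the genes with a match to the *MIR825* arm did not have the higher median level. The median of the matched genes was 0.129 RPM per kb in Col-0 (1) and 0.0847 in Col-0 (2), against 0.248 and 0.164 for the unmatched genes, as a description without a test. The floor was 0.537 to 0.57 RPM in Col-0 (1) and 0.354 to 0.468 RPM in Col-0 (2) before division by exon length. The matched medians lie near it. By reads, the matched genes held 65.1% and 73.1% of the total on all TIR-type genes listed. Without the reads of *AT5G38850* in their sum, they held 24.0% and 17.2% of that total. *LAZ5*, second in level, had a penalty of 7, and *AT2G14080* one of 5. Among the 10 genes with the highest levels, 3 were matched in Col-0 (1) and 4 in Col-0 (2). In Col-0 (3) the medians were 0.511 RPM per kb for the matched and 0.406 for the unmatched genes, and 6 of the 10 highest genes were matched. The floor there was 1.43 to 1.52 RPM before division by exon length, so both medians lie near it. These values are not compared with those of the seedlings.

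**Figure D2:**
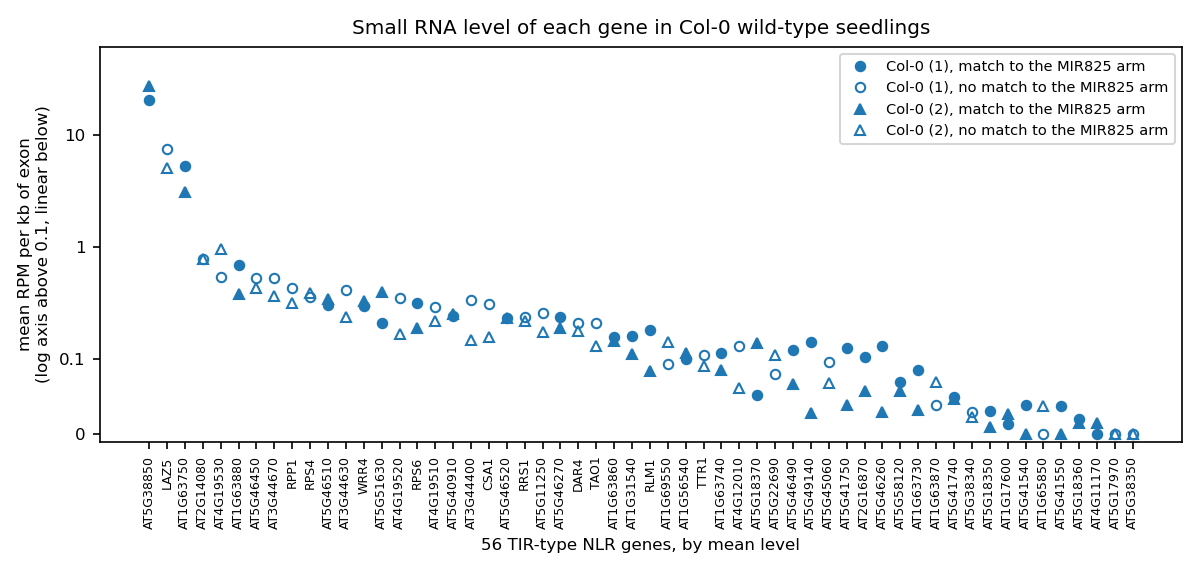
Mean RPM per kb of exon (y axis, logarithmic above 0.1 and linear below) of the 56 genes in the 3 libraries of Col-0 (1) (circles) and of Col-0 (2) (triangles), ordered by their mean over both. Filled symbols are genes with a match to the *MIR825* arm. *AT5G38850* at 20.4 and 27.2, *LAZ5* and *AT1G63750* stand above all others, which lie below 1.

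In 21 day-old Col-0 (3) plants *AT5G38850* held 66.5% of the reads on the 56 genes. *AT1G63750* had 15.4% and *LAZ5* 9.33%. These shares are within one set and are not compared with those of the seedlings.

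Over the 10 mutants, 30 of the 56 genes had enough reads for the test in at least 1 comparison, 6 in every comparison and 6 in *cstf64-2* only. The other 26 were not tested in any mutant, and their highest count in a library was 20. Of these, *AT5G17970*, *AT5G41550* and *AT4G11170*, the last annotated as *RMG1*, were at the floor in every group. The libraries of a mutant were tested against those of the wild type grown with it with the quasi-likelihood test of edgeR, and p-values were adjusted by Benjamini-Hochberg across every gene that entered the fit. A gene is said to have risen or fallen where the adjusted p was below 0.05 and the log2 fold change above 1 in size. By this rule 10 of the 30 genes tested (33.3%) changed in at least 1 mutant, beside 32.1% of the 13139 genes tested in at least 1 mutant over the whole table, so the share is near the background.

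**Figure D3:**
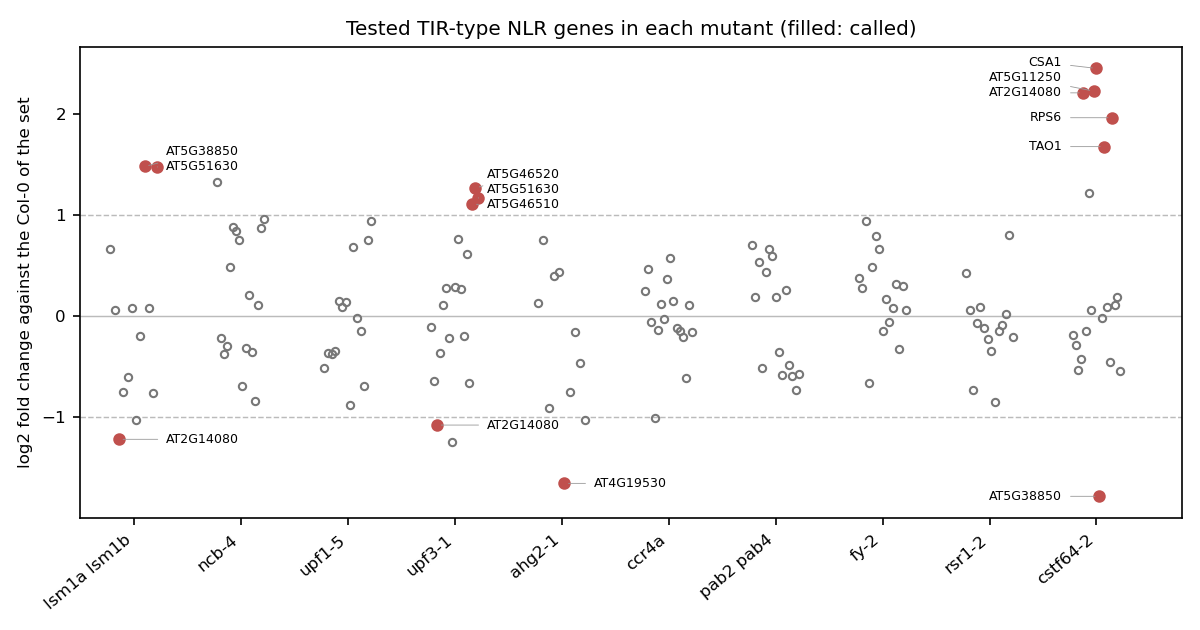
log2 fold change (y axis) of the TIR-type NLR genes tested in each mutant against the Col-0 of its set (x axis). Each point is a gene, filled points with names are those that rose or fell under the rule, and dashed lines mark a log2 fold change of 1 in either direction. Called genes appear in *lsm1a lsm1b*, *upf3-1*, *ahg2-1* and *cstf64-2*, and *AT5G38850* is the highest in *lsm1a lsm1b* and the lowest in *cstf64-2*.

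*AT5G38850* was the gene with most reads and the one that moved most clearly. In Col-0 (1) it had 63.9, 74.3 and 72.7 RPM, and in *lsm1a lsm1b* 214, 192 and 189 RPM. Every *lsm1a lsm1b* library was thus above every wild-type one, and the gene rose by a log2 fold change of 1.48 ± 0.15 (SE, edgeR adjusted p = 1.34e-05), or 2.79-fold. The other mutants of the first set stood at 82.6 ± 10.5 (*ncb-4*), 69.3 ± 8.10 (*upf1-5*) and 83.2 ± 9.64 RPM (*upf3-1*), where it was not called.

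In the second set the wild-type libraries had 95.0, 84.7 and 101 RPM of *AT5G38850*. The libraries of *rsr1-2* had 49.7, 61.1 and 48.5 RPM, those of *ahg2-1* 53.7, 53.6 and 62.1 RPM, and those of *pab2 pab4* 59.6, 64.5 and 68.0 RPM. All 9 mutant libraries were below all 3 wild-type ones. The log2 fold changes were -0.85 ± 0.16 in *rsr1-2* (edgeR adjusted p = 0.00108), -0.75 ± 0.16 in *ahg2-1* (0.00297) and -0.58 ± 0.15 in *pab2 pab4* (0.0104), past the p threshold but not the fold threshold. In *ccr4a*, with 97.0, 85.9 and 78.7 RPM, and in *fy-2*, with 96.7, 117 and 107 RPM, the values overlapped those of the wild type.

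The 2 seedling wild types differed in this gene by a log2 fold change of 0.78 ± 0.17 in favour of Col-0 (2) (edgeR adjusted p = 0.00591), with 93.7 ± 8.42 RPM against 70.3 ± 5.63 on the scales of their own sets. Set, growth and library preparation cannot be told apart there. Against the wild type of the other set, the change in *lsm1a lsm1b* was 0.71 (edgeR adjusted p = 0.00264), below the fold threshold. Those in *rsr1-2* and *ahg2-1* came to -0.09 and -0.00, and that in *pab2 pab4* turned to 0.18. Within the second set, *ahg2-1* was below *ccr4a*, another mutant of a putative deadenylase, by -0.63 ± 0.14 (edgeR adjusted p = 0.00314), a comparison that uses no wild type.

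**Figure D4:**
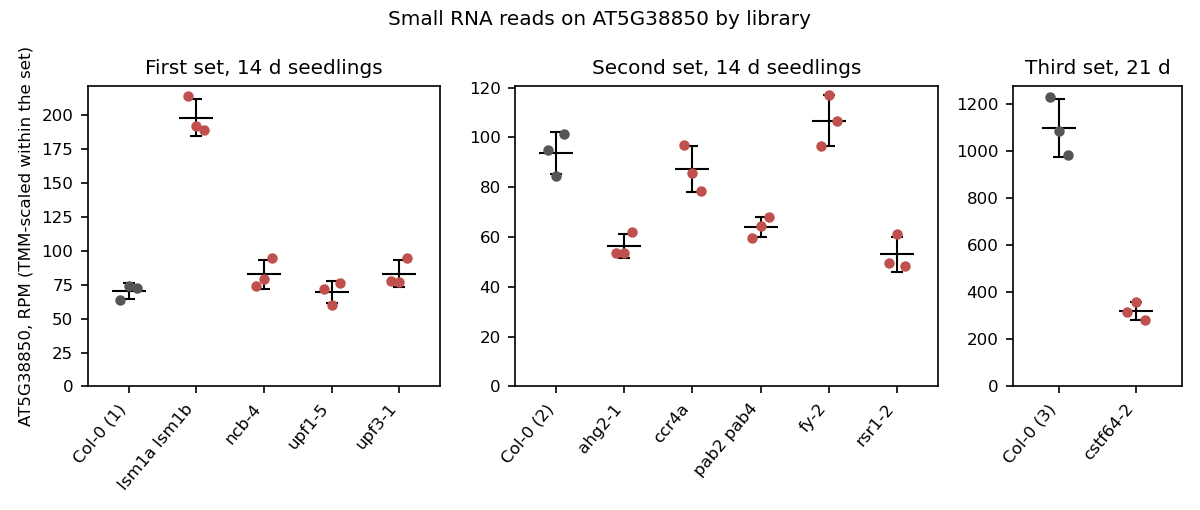
RPM of *AT5G38850* (y axis, TMM-scaled within each set, separate scales) in every library of the first set (left), the second set (middle) and the third set (right). Points are libraries, horizontal bars are means and error bars are SD (n = 3). The *lsm1a lsm1b* libraries lie between 189 and 214, above all others of their set, and those of *cstf64-2* lie below those of Col-0 (3).

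In the third set *AT5G38850* fell. Col-0 (3) had 1229, 1084 and 985 RPM and *cstf64-2* 317, 359 and 282 RPM. The groups did not overlap, with a log2 fold change of -1.78 ± 0.12 (edgeR adjusted p = 1.32e-06), or 0.291 times the wild-type level. This call held in all 13 alternatives run.

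The sum over the other 55 genes moved little beside it. In *lsm1a lsm1b* the 56 genes summed to 295 ± 17.8 RPM against 171 ± 15.5 in Col-0 (1), and to 96.9 ± 5.37 against 101 ± 11.7 without *AT5G38850*. In *cstf64-2* they summed to 893 ± 28.0 RPM against 1654 ± 138 in Col-0 (3), and to 573 ± 12.8 against 555 ± 29.0 without it. These near-equal sums hold changes in both directions. Matched genes other than *AT5G38850* had 288 ± 12.2 RPM against 339 ± 29.5, while 5 of the 56 genes rose, as given below. The sum in this set rests mostly on *LAZ5* and *AT1G63750* and does not describe single genes. In *rsr1-2* the sums were 128 ± 5.77 and 168 ± 10.8 RPM with *AT5G38850* and 75.0 ± 1.91 and 73.9 ± 4.39 without it, mutant first.

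*LAZ5* and *AT1G63750*, the other 2 genes with many reads, were not called in any mutant. *LAZ5* had 27.9, 39.0 and 25.1 RPM in Col-0 (1) and 34.7, 33.6 and 29.7 RPM in *lsm1a lsm1b*, and its libraries overlapped with the wild type in all 10 mutants. Its log2 fold changes lay between -0.36 ± 0.16 in *ncb-4* and 0.25 ± 0.15 in *pab2 pab4*. In *cstf64-2* it was 162, 166 and 165 RPM against 164, 158 and 141, a log2 fold change of 0.09 ± 0.09.

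*AT1G63750* had 11.7, 14.5 and 14.9 RPM in Col-0 (2) and stood above these in all libraries of *ccr4a* (16.6, 21.5 and 19.3) and *rsr1-2* (17.5, 21.4 and 17.6). Neither difference passed, with log2 fold changes of 0.46 ± 0.16 (edgeR adjusted p = 0.245) and 0.43 ± 0.16 (0.0944). In *cstf64-2* all libraries, with 189, 217 and 220 RPM, were below the 252, 279 and 235 RPM of Col-0 (3). The log2 fold change of -0.29 ± 0.09 passed the p threshold (edgeR adjusted p = 0.0308) but not the fold threshold.

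In *lsm1a lsm1b*, 12 of the 56 genes were tested, 2 rose and 1 fell. Over all 9558 genes tested 2.2% rose and 5.46% fell. With sequenced library sizes in place of TMM this split was 2476 risen to 43 fallen against 210 to 522, and that of the TIR-type genes 3 to 0. The median log2 fold change of the tested TIR-type genes was -0.07, against -0.03 over all genes. Beside *AT5G38850*, the gene that rose was *AT5G51630*, with 0.894, 1.14 and 1.69 RPM in Col-0 (1) and 2.90, 3.16 and 4.42 RPM in *lsm1a lsm1b*.

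The *AT5G51630* groups did not overlap, with a log2 fold change of 1.48 ± 0.39 (edgeR adjusted p = 0.0151). The wild-type counts were 5, 6 and 9, so the gene passed the low-count filter only through the mutant libraries. Its adjusted p was 0.0717 without Col-0 (1) replicate 1, 0.0574 without Col-0 (1) replicate 2 and 0.0815 without *lsm1a lsm1b* replicate 3, and against Col-0 (2) the log2 fold change was 0.20. *AT5G51630* overlaps the convergent gene *AT5G51640* by 761 bp. If strand was not used in counting, reads that fit both genes there would stand on the counter line for ambiguous reads, which was left out.

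*AT2G14080* had 3.04, 2.85 and 3.56 RPM in Col-0 (1) and 1.56, 0.790 and 1.66 RPM in *lsm1a lsm1b*, lower in all 3. It fell by a log2 fold change of -1.22 ± 0.38 (edgeR adjusted p = 0.0364), a call that 5 of 15 alternatives kept. It was lost with DESeq2, with no filter, with sequenced library sizes, with TMM over protein-coding genes, and when any one of the 6 libraries was left out, with adjusted p between 0.0531 and 0.121. The same gene was lower in all libraries in *ncb-4*, *upf3-1*, *ahg2-1*, *ccr4a* and *fy-2*, and in none of these did the log2 fold change go below -1.08. These comparisons share their Col-0 libraries within a set.

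In *upf3-1*, 17 genes were tested, 3 rose and 1 fell, beside 4.39% risen and 7.76% fallen among 9492 genes. The median was 0.11 for the TIR-type genes and -0.02 for all genes. With sequenced library sizes the split of all genes was 2354 to 223 against 417 to 737, and that of the TIR-type genes 5 to 0. At an unadjusted p below 0.05 edgeR had 5 of the 17. DESeq2, which keeps another set of genes by its own filter, called none of 24, with 4 at an unadjusted p below 0.05.

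A neighbouring pair on chromosome 5, in the region of *RPS6*, rose in *upf3-1*. *AT5G46520* (18867616–18872494, + strand) is annotated as *VICTR*, and *AT5G46510* (18860234–18867015, + strand) as *VICTL*. *VICTR* had 0.894, 1.33 and 0.750 RPM in Col-0 (1) and 2.08, 3.25 and 1.81 RPM in *upf3-1*, with a log2 fold change of 1.27 ± 0.46 (edgeR adjusted p = 0.0399). *VICTL* had 1.61, 2.28 and 0.937 RPM in Col-0 (1) and 3.24, 4.29 and 2.77 RPM in *upf3-1*, with a log2 fold change of 1.11 ± 0.38 (edgeR adjusted p = 0.0332).

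Both genes were higher in every *upf3-1* library, but their reads are not separate measurements. Of the 21-base words of *VICTR*, 64.8% occur in *VICTL*, and 52.5% of those of *VICTL* occur in *VICTR*. Wild-type counts were 5, 7 and 4 for *VICTR* and 9, 12 and 5 for *VICTL*, so both passed the filter only through the mutant libraries. Leaving out any one library other than *upf3-1* replicate 3 lost the *VICTR* call, with adjusted p from 0.0511 to 0.225. For *VICTL* the call was lost without Col-0 (1) replicate 1 (0.0661) or 3 (0.155) and without *upf3-1* replicate 1 (0.0721) or 2 (0.150). *RPS6* itself, a receptor for resistance to *Pseudomonas syringae*, had 4, 5 and 13 counts in *upf3-1* and 11, 10 and 5 in Col-0 (1), and was not tested.

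*AT5G51630* had 2.43, 2.21 and 3.61 RPM in *upf3-1* and rose by 1.17 ± 0.42 on the log2 scale (edgeR adjusted p = 0.0405). As in *lsm1a lsm1b*, it passed the filter only through the mutant libraries. The value was -0.07 against Col-0 (2), whose libraries had 2.81, 2.16 and 2.13 RPM on the scale of their own set. The call was lost without Col-0 (1) replicate 1 (0.153) or 2 (0.106) and without *upf3-1* replicate 1 (0.0715) or 3 (0.207). *AT2G14080*, with 1.27, 0.910 and 2.17 RPM in *upf3-1*, fell by -1.08 ± 0.39 on the log2 scale (edgeR adjusted p = 0.0437), a call lost without any one of the libraries except *upf3-1* replicate 3, with adjusted p from 0.0667 to 0.143.

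In *upf1-5*, a mutant of another factor of the same decay pathway, none of 14 genes was called, with 1 of 14 at an unadjusted p below 0.05 in edgeR and 1 of 3 in DESeq2, beside 5.29% called among 9232 genes. *VICTR* had the largest log2 fold change, 0.94 ± 0.49 (edgeR adjusted p = 0.238), from 1.38, 2.16 and 2.20 RPM, all above the wild type. With wild-type counts of 5, 7 and 4, *VICTR* passed the filter only through *upf1-5* and could enter only by being higher there. *VICTL*, with 1.52, 3.64 and 2.93 RPM, overlapped the wild type. Tested directly, *upf3-1* against *upf1-5* gave no call among 19 genes, with 3 of 19 at an unadjusted p below 0.05 in edgeR and 2 of 3 in DESeq2, beside 0.356% over 9830 genes. *VICTR* differed there by 0.32 ± 0.37 and *VICTL* by 0.35 ± 0.33 on the log2 scale. A difference between the 2 NMD mutants was not shown for these genes.

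In *ncb-4*, none of 16 genes was called, with 6 of 16 at an unadjusted p below 0.05 in edgeR and 2 of 27 in DESeq2, beside 10.6% called among 9432 genes. *RPP1*, a receptor for downy mildew effectors, had 4.02, 4.72 and 4.90 RPM against 2.68, 2.85 and 1.69 in Col-0 (1). It was higher in all libraries, with a log2 fold change of 0.89 ± 0.31 (edgeR adjusted p = 0.0464), under the fold threshold. The 4 genes of the *RPP1* cluster share between 45.4% and 65.7% of their 21-base words with other genes, so their reads are not cleanly separated. *WRR4*, a receptor for white rust resistance, had the largest change, 1.33 ± 0.50 on the log2 scale (edgeR adjusted p = 0.0629), from 1.81, 3.83 and 2.94 RPM against 1.25, 0.190 and 1.87. Its groups overlapped. With wild-type counts of 7, 1 and 10, *WRR4* passed the filter only through *ncb-4* and could enter only by being higher there. It was not called in the main fit, but passed without Col-0 (1) replicate 3 (0.0295) or *ncb-4* replicate 1 (0.0403). It also passed with no filter, with sequenced library sizes and with TMM over protein-coding genes.

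In *ahg2-1*, 10 genes were tested, none rose and 1 fell, beside 3.55% risen and 5.27% fallen among 9371 genes. With sequenced library sizes the split of all genes was 722 risen to 258 fallen, and with TMM over protein-coding genes 687 to 311, against 333 to 494, while that of the TIR-type genes stayed at 0 to 1. The median was -0.31 for the TIR-type genes and -0.03 for all genes. The gene that fell was *AT4G19530* (chromosome 4, 10651744–10657282, + strand). It had 4.52, 4.46 and 2.48 RPM in Col-0 (2) and 0.340, 1.82 and 1.52 RPM in *ahg2-1*, where counts were 3, 13 and 14. All *ahg2-1* libraries were lower, with a log2 fold change of -1.66 ± 0.43 (edgeR adjusted p = 0.00938). The call was lost without Col-0 (2) replicate 2 (-1.51, adjusted p = 0.0502) and against Col-0 (1), where the change was -0.53.

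*AT4G19530* shares under 1% of its 21-base words (0.747%) with other genes, so its reads are nearly all its own. Against *ccr4a*, with 4.63, 4.47 and 3.45 RPM, *ahg2-1* was lower by -1.80 ± 0.36 on the log2 scale (edgeR adjusted p = 0.000944), and this call held in all 14 alternatives run. It was the only gene called among 14 tested in this comparison, beside 2.29% higher and 4.49% lower among 9885 genes. With TMM over protein-coding genes the split of all genes was 497 higher to 296 lower against 226 to 444, and that of the TIR-type genes 1 to 1. Its neighbour *AT4G19520* was not tested in *ahg2-1* against the wild type. *RPS4*, which acts with *RRS1* as a receptor pair, had 0.794, 0.420 and 0.218 RPM in *ahg2-1*, all below the 1.87, 1.73 and 1.06 RPM of Col-0 (2), on 12 counts or fewer, and was not tested there.

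In *ccr4a* itself none of 16 genes was called, with 2 of 16 at an unadjusted p below 0.05 in edgeR and 2 of 21 in DESeq2, beside 0.616% called among 9747 genes. *AT2G14080* had the largest change, -1.01 ± 0.32 on the log2 scale (edgeR adjusted p = 0.17), from 1.23, 1.95 and 1.60 RPM against 3.43, 3.46 and 2.72, with no overlap. In *pab2 pab4* none of 15 was called, with 1 of 15 at an unadjusted p below 0.05 in edgeR and 2 of 5 in DESeq2, beside 6.18% among 9742 genes. *VICTL* moved most there, by -0.73 ± 0.42 (edgeR adjusted p = 0.215), from 1.05, 0.632 and 1.65 RPM against 1.56, 2.45 and 1.42.

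The mutants of 3′ end formation among the seedlings also gave no call. In *fy-2* none of 15 genes was called, with 1 of 15 at an unadjusted p below 0.05 in edgeR and 1 of 3 in DESeq2, beside 1.2% among 9534 genes. The largest change was that of *AT1G69550*, 0.94 ± 0.53 on the log2 scale (edgeR adjusted p = 0.33), with overlapping libraries. In *rsr1-2* none of 14 was called, with 3 of 14 at an unadjusted p below 0.05 in edgeR and 2 of 3 in DESeq2, beside 2.44% among 9613 genes, and *AT5G38850* moved most.

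Between the wild types of both seedling sets, none of 12 genes was called, with 3 of 12 at an unadjusted p below 0.05 in edgeR and 2 of 5 in DESeq2, beside 2.96% among 8840 genes. *AT5G51630* and *AT4G19530* nevertheless differed by 1.28 and 1.16 on the log2 scale (edgeR adjusted p = 0.078 and 0.0506), both higher in Col-0 (2), as was *AT5G38850*. The changes of these 3 genes against a single wild type have this difference beside them.

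In *cstf64-2*, 19 genes were tested, more than in any other mutant, and 5 rose while 1 fell. Over 9207 genes 13.6% rose and 3.3% fell. The median was 0.06 for the TIR-type genes and -0.00 for all genes. With TMM taken over protein-coding genes the split of all genes was 1099 risen to 753 fallen against 1250 to 304. That of the TIR-type genes stayed at 5 to 1. With sequenced library sizes the splits were 1506 to 161 for all genes and 6 to 1 for the TIR-type genes. DESeq2 tested 38 TIR-type genes and called 5 higher and 1 lower. Of its 5, *AT2G14080*, *CSA1* and *AT5G11250* are among those of edgeR, and *AT5G22690* and *TTR1* were not tested in edgeR.

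*AT2G14080* rose with the firmest support among the risen genes, from 6.19, 4.43 and 9.11 RPM in Col-0 (3) to 35.7, 22.6 and 33.2 RPM in *cstf64-2* (log2 fold change 2.21 ± 0.29, edgeR adjusted p = 0.000183). Its counts of 54 to 89 in the mutant were the highest among the risen genes. The gene showed lower values in several seedling mutants, as given above.

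*CSA1*, annotated for constitutive shade avoidance and encoded beside *DAR4* (*CHS3*), had 5, 1 and 4 counts in Col-0 (3) and 23, 24 and 19 counts in *cstf64-2* (log2 fold change 2.45 ± 0.45, edgeR adjusted p = 0.00155). *AT5G11250* had 0.953, 2.46 and 2.02 RPM in Col-0 (3) and 9.63, 7.96 and 8.30 RPM in *cstf64-2* (2.23 ± 0.42, edgeR adjusted p = 0.00162). *RPS6* had 1.91, 0.984 and 2.02 RPM in Col-0 (3) and 7.62, 6.29 and 5.68 RPM in *cstf64-2* (1.96 ± 0.43, edgeR adjusted p = 0.0041). In each of these genes all mutant libraries stood above all wild-type ones.

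*TAO1*, a receptor gene that contributes to disease resistance against *Pseudomonas syringae* carrying AvrB, had 1.43, 1.48 and 3.04 RPM in Col-0 (3) and 5.62, 8.80 and 4.81 RPM in *cstf64-2* (1.68 ± 0.46, edgeR adjusted p = 0.0152). Its call was lost without Col-0 (3) replicate 1 (0.071) or 2 (0.069) and without *cstf64-2* replicate 2 (0.0782). DESeq2 lost *TAO1* (0.111) and *RPS6* (0.0552). Wild-type counts of *CSA1*, *AT5G11250*, *RPS6* and *TAO1* were between 1 and 6 per library, so these 4 genes passed the filter only through *cstf64-2* and could enter the test only by being higher there.

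**Figure D5:**
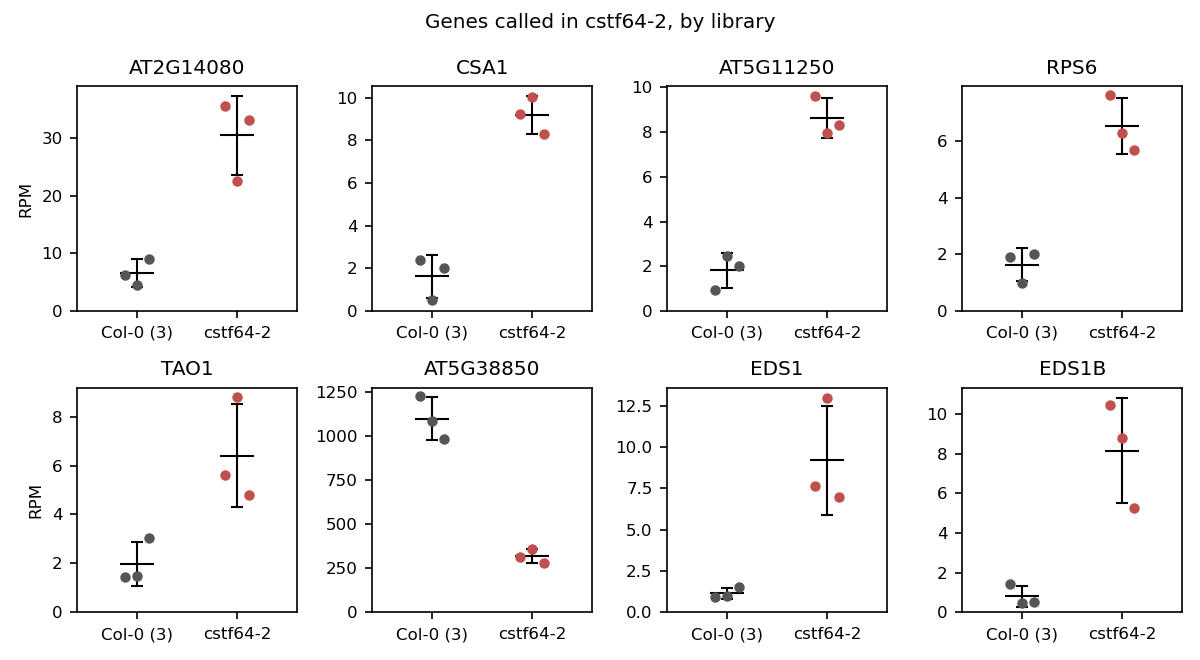
RPM (y axis, a separate scale for each gene) in the 3 libraries of Col-0 (3) and the 3 of *cstf64-2* for the 6 TIR-type genes called and for *EDS1* and *EDS1B*. Points are libraries, bars are means and error bars SD (n = 3). In every panel the 2 groups are apart, with *AT5G38850* alone lower in *cstf64-2*.

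Among untested genes, *AT5G22690* had 20, 10 and 17 counts in *cstf64-2* and 0, 1 and 0 in Col-0 (3). Against a floor of 3 counts per library it was at least 4.44-fold higher. *TTR1*, whose product joins a WRKY domain to an NLR, had 9, 7 and 13 counts against 0, 1 and 0 and was at least 2.76-fold higher. *DAR4* counts were 8, 2 and 7 against 2, 1 and 2. *AT4G12010*, with 7.62, 6.29 and 5.68 RPM against 5.24, 1.48 and 1.52, was tested and had a log2 fold change of 1.22 (edgeR adjusted p = 0.0706). With wild-type counts of 11, 3 and 3, *AT4G12010* also passed the filter only through *cstf64-2* and could enter only by being higher there.

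The risen genes in *cstf64-2* differed in position and in their match to the arm. *RPS6* matches at the limit of 4.0, while *CSA1* (8), *AT5G11250* (6), *TAO1* (6) and *AT2G14080* (5) do not. Convergent genes were looked up because the study asked about them in this mutant. *TAO1* overlaps *AT5G44500* by 278 bp, and *CSA1* ends 369 bp from *AT5G17870*. *AT5G11250* ends 901 bp, *AT2G14080* 2480 bp and *RPS6* 27348 bp from the nearest gene on the opposite strand downstream. Of the 56 genes, 12 (21.4%) have a convergent neighbour within 400 bp, against 31.1% of protein-coding genes.

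The reads of the other receptors named for known functions were few. *RRS1*, the partner of *RPS4*, had 0.236 ± 0.0663 and 0.219 ± 0.0614 RPM per kb in Col-0 (1) and Col-0 (2), and *RLM1*, a gene for resistance to *Leptosphaeria maculans*, 0.185 ± 0.225 and 0.0840 ± 0.0790. *RLM1* had at most 10 counts in any library and was at the floor in 4 groups. *RRS1* and *RPS4* were each tested in 2 mutants, with no call.

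Of the 13 genes that act with or below TIR-type receptors, 3 or 4 were tested in each mutant. In *cstf64-2* *EDS1* and *EDS1B* rose, but with at most 3 counts in each wild-type library both passed the low-count filter only through *cstf64-2* and could enter the test only by being higher there. *EDS1* had 2, 2 and 3 counts in Col-0 (3) and 19, 31 and 16 in *cstf64-2*, at least 6.24-fold higher against the floor, with edgeR adjusted p = 0.000724. *EDS1B* had 3, 1 and 1 counts against 26, 21 and 12, at least 5.53-fold higher, with edgeR adjusted p = 0.000828. *EDS1* shares 7.73% of its 21-base words with *EDS1B*. *EDS1B* also overlaps the convergent gene *AT3G48070* by 503 bp.

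The helper NLR *ADR1-L1* was lower in all *cstf64-2* libraries, with 21.3, 25.1 and 34.5 RPM against 41.0, 45.2 and 55.7. Its log2 fold change of -0.81 ± 0.19 (edgeR adjusted p = 0.00647) was under the fold threshold. It passed the threshold without *cstf64-2* replicate 3, at -1.03, and with TMM over protein-coding genes, at -1.07. *ADR1-L1* overlaps the convergent gene *AT4G33290* by 410 bp. In the 9 seedling mutants none of the signalling genes was called.

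Sequence shared between genes sets how far the reads of a receptor can be told from those of its relatives. Between 0.125% and 77.5% of the 21-base words of each gene, with a median of 6.23%, occur in another gene. For 24 of the 56 genes the share was below 5%, among them *AT5G38850* (2.23%), *LAZ5* (0.349%), *CSA1* (0.385%), *AT5G11250* (3.00%), *RPS6* (3.01%) and *AT2G14080* (4.01%). For 12 genes it was above 20%, and these include the *RPP1* cluster, *VICTR* and *VICTL*. The share counts only exons of other annotated genes. Words found at several places anywhere in the genome made up 9.06% for *LAZ5*, 14.4% for *AT1G63750* and 2.23% for *AT5G38850*.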

How the data were processed

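Small RNA libraries (NEBNext kit, 50 bp reads) of 39 samples were analysed from the raw counts per gene that the authors deposited, which are not normalized. For these counts the authors trimmed reads with cutadapt 1.9 and sickle (quality 20, shortest read 15), aligned them without mismatch to TAIR10 with bowtie 1.0.0, keeping reads with up to 10 places, used SAMtools 1.1 and counted reads on Araport11 exons with HTSeq 0.6.0. The authors counted with and without respect to strand, and which of these the deposited counts hold is not given in the sources used here. The authors' own tests used DESeq2 1.8.2 in R 3.2.2. Counter lines that name no gene held 59.5% to 79.7% of the total of each file and were left out of library sizes and tests. No columns were left without a sample.

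Each comparison used the 6 libraries of its 2 groups in edgeR 4.0.16 (TMM, filterByExpr, quasi-likelihood test, Benjamini-Hochberg adjustment over all genes tested) in R 4.3.3, with thresholds of 0.05 for the adjusted p and 1 for the log2 fold change. These thresholds and the pairing of each mutant with its own Col-0 follow the study. Standard errors were derived from the fold change and its F statistic. On simulated counts, edgeR recovered 86.5% of 200 changed genes among 21465 for Col-0 (1), 87% among 22060 for Col-0 (2) and 89.5% among 21465 for Col-0 (3). False calls among the unchanged genes were 9, 8 and 6. The changed genes were drawn from those with a mean of at least 10 counts and were changed by 3-fold or more. The recovery therefore does not cover receptors with fewer counts or smaller changes. DESeq2 1.42.0, other scalings, filters, the other wild type, all groups of a set in one model, a replicate block and left-out libraries were alternatives. With sequenced library sizes the median log2 fold change of all genes moved to between -0.13 and 0.66, and changes are reported relative to the TMM centre. The ± values are SDs between libraries or SEs of the fit, and the floor of 3 counts per library covers counting error only. The members, the lists and the tests were chosen with earlier results of these data known. Genes were named if they were called in any mutant, among the 10 highest in seedling wild types, a characterised receptor with an annotated symbol, the largest change in a mutant, or a tested gene of the signalling list. Genes outside this rule that carry values here (*AT5G22690*, *AT4G12010*, *AT4G19520*) were chosen after their values were seen. RPM is counts per 1000000 reads on genes after TMM scaling within a set. Hairpin folding used ViennaRNA 2.7.2, and coordinates are those of RefSeq TAIR10.1.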

Additional observations from a re-analysis of the deposited data

Results flagged for a closer look

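A pair of genes differed between *ahg2-1* and *ccr4a*, mutants of putative deadenylases, by a test of the difference itself (edgeR quasi-likelihood test, n = 3 each). For *AT4G19530* the log2 fold change of *ahg2-1* against *ccr4a* was -1.80 (edgeR adjusted p = 0.000944), lower in 3 of 3 libraries. For *AT5G38850* it was -0.63 (edgeR adjusted p = 0.00314), lower in 3 of 3 libraries and under the fold threshold. No cause was tested.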

How the results depend on the processing

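Of the alternative values for counts of called genes, 143 stayed within 1.5 times the first value and 46 did not. Of those for single genes, 541 kept their direction and side of the threshold, 54 lost it, 11 gained it and 2 reversed. Those 2 were *AT5G51630* in *upf3-1* (-0.0741) and *AT5G38850* in *pab2 pab4* (0.1809), both against the other Col-0. In *lsm1a lsm1b* (3 called), DESeq2, no filter and TMM on protein-coding genes each gave 2, and against the other Col-0 3 fell and none rose. In *ncb-4* (0 called), no filter gave 1, the other Col-0 4, sequenced library sizes 6 and protein-coding TMM 4. In *upf1-5* (0 called), no filter gave 1 and sequenced sizes 3. In *upf3-1* (4 called), all groups in one model and no filter each gave 1, DESeq2 0 and the other Col-0 2, both fallen. In *ahg2-1* (1 called), all groups gave 3 and the other Col-0 0. Against the other Col-0, *ccr4a* and *fy-2* (0 called) gave 1 each, and *pab2 pab4* (0 called) gave 3 with sequenced sizes. In *cstf64-2* (6 called), requiring a mean of 10 counts gave 4, and in *ahg2-1* against *ccr4a* (1 called) all groups gave 2, no filter 3 and protein-coding TMM 2. Leaving out 1 library at a time gave 1 to 2 calls in *lsm1a lsm1b*, 0 to 1 in *ncb-4* and *upf1-5*, 0 to 3 in *upf3-1* and *ahg2-1*, 6 to 7 in *cstf64-2*, 1 to 2 in *ahg2-1* against *ccr4a* and 0 to 1 between the seedling wild types. The causes were not tested. The replicate block gave 7 calls in *cstf64-2* and the first count in all other comparisons. In *cstf64-2* and Col-0 (3) the deviations of same-numbered libraries correlated at 0.000, 0.180 and 0.257 and those of other pairs at -0.282 to 0.124, so 2 of the 3 numbers were above 0.1. As no comparison had every same-numbered r above 0.1 and no label names a shared batch, the numbers were not taken as pairs. The TMM on protein-coding genes was chosen after seeing the data.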
